A study of Mus musculus with 22 samples.

Results

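The nuclei described here were those that the deposited annotation of a hypothalamic single-nucleus RNA-seq dataset named microglia. They numbered 481 of 24965 nuclei. The members were taken by this annotated name alone. The authors had given the name by clustering the same nuclei, so levels of microglia genes against other nuclei are given as description, without a test. All animals were male ob/ob mice of 11 weeks, which lack leptin, become obese and diabetic, and were housed singly. Each mouse had 1 intracerebroventricular (icv) injection, either 3 µg of fibroblast growth factor 1 (FGF1) or PBS as vehicle, and the vehicle mice were pair-fed to the intake of the FGF1 mice. Hypothalamic punches were taken after 24 h (Day 1, 3 FGF1 and 3 vehicle mice) or after 5 days (Day 5, 2 FGF1 and 2 vehicle mice), with 1 mouse per library. Every animal, controls included, was leptin-deficient and injected into the ventricle. Lean mice were not analysed here. The comparison asked how transcripts in these nuclei differed between FGF1 and vehicle on each day.

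Microglia are the resident macrophages of the brain parenchyma. They arise from yolk sac progenitors, depend on signalling through the CSF1 receptor (Csf1r) and on the transcription factor PU.1 (Spi1), survey the tissue with motile processes, clear debris and synapses, and make most of the C1q that starts the classical complement pathway. In the hypothalamus they take part in the response of the mediobasal region to diet, and they respond to injury and inflammatory signals by changing shape, lowering homeostatic genes and releasing chemokines.

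The data went against a reading of these 481 nuclei as microglia alone. Of the 481, 480 (99.8%) held 3 or more unique molecular identifiers (UMIs, each standing for 1 captured transcript) of 4 neuron markers, Snap25, Syt1, Rbfox3 and Meg3, and none held 0. This was not particular to them, since 1364 of 1375 oligodendrocytes (99.2%) and 620 of 662 oligodendrocyte precursors (93.7%) also held 3 or more, against 811 of 1538 astrocytes (52.7%). A list of 20 microglia genes, the markers Csf1r, Cx3cr1 and C1qa with further homeostatic genes, gave 3 or more UMIs in 443 (92.1%). Both held in 442 nuclei (91.9%). The median nucleus had 6 UMIs of the 20 microglia genes and 58 of the 4 neuron markers, and 5 nuclei held more of the former than of the latter. The nuclei are called annotated nuclei below, and no other cell type name is given to them.

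The annotated nuclei were compared with the 11986 nuclei that the annotation left as neurons without a subtype, called unmapped neurons here. In these, 466 of 11986 (3.89%) reached 3 UMIs of the microglia list, with a median of 0, and the median for the neuron markers was 46 UMIs. The share with 3 or more microglia list UMIs was 6.47% in oligodendrocytes, 9.67% in oligodendrocyte precursors and 15.9% in astrocytes, against 92.1% in the annotated nuclei. Per 10000 UMIs the median neuron marker content was 148 in annotated nuclei, 170 in unmapped neurons, 144 in oligodendrocytes, 115 in oligodendrocyte precursors and 10.8 in astrocytes. Median depth was 3880 UMIs per annotated nucleus, 2572.5 per unmapped neuron nucleus and 2693.5 per astrocyte nucleus. The cut at 3 UMIs passed through a continuous range, since 28 annotated nuclei held 2 microglia list UMIs and 47 held 3. In the annotated nuclei 188 of 481 (39.1%) held a GABA neuron transcript without Slc17a6, the glutamate transporter gene, 63 (13.1%) held Slc17a6 without GABA genes, and 50 (10.4%) held both. In unmapped neurons these shares were 40.7%, 11.6% and 7.05%. With each nucleus thinned to 1500 UMIs they were 25.3%, 7.58% and 1.26% in 475 annotated nuclei and 31.2%, 8.08% and 1.75% in 1200 unmapped neurons, a random 120 per mouse, so the order of the share with both turned.

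**Figure D1:**
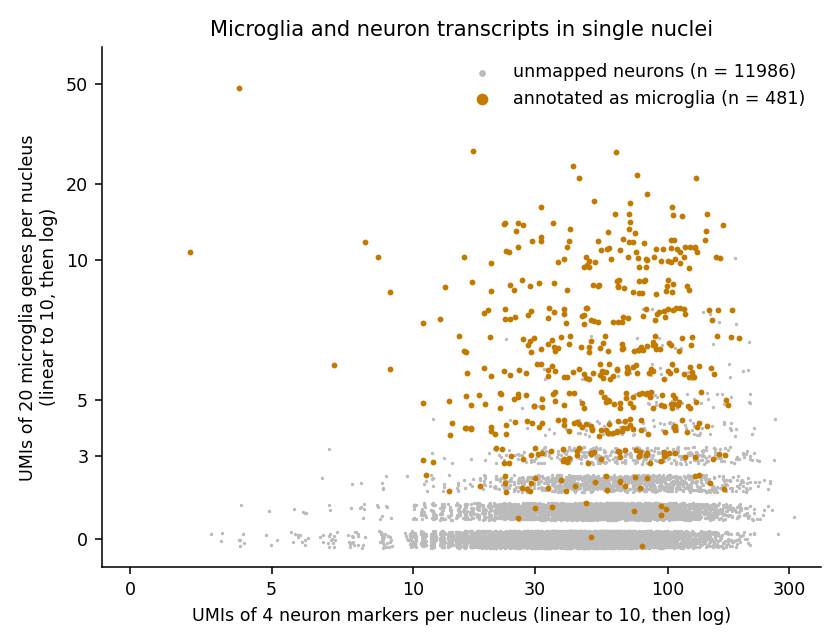
UMIs of 20 microglia genes (y axis) against UMIs of 4 neuron markers (x axis) in single nuclei, both axes linear to 10 and logarithmic above, for the 481 annotated nuclei and the 11986 unmapped neuron nuclei, with points shifted slightly apart. The annotated nuclei lie at a median of 6 microglia UMIs and 58 neuron UMIs, and the unmapped neuron nuclei at 0 and 46.

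Whole transcriptomes gave the same picture of a large shared and a small distinct fraction. Counts were summed per mouse and scaled to CPM, the counts a gene would have in a library of fixed size. Of 4117 genes with a mean of at least 50 CPM over the 10 mice in the annotated nuclei, 4019 (97.6%) lay within a factor of 2 of their level in unmapped neurons, 98 were at least 2 times higher, and 0 were at least 2 times lower. The cut at 50 CPM was made in the annotated nuclei, so genes low there were left out and the 98 against 0 follows in part from it. The median ratio of the means was 1.002. Genes at 4 or more times the unmapped level made up 0.919% of the UMIs. In 30 genes the level was at least 4 times the unmapped level in each of the 10 mice, and 20 of these 30 were in a list used here.

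The 30 genes were largely those of macrophages. The complement genes C1qa, C1qb and C1qc encode the 3 chains of C1q. C1qa averaged 140 ± 60.1 CPM (SD, n = 10 mice) against 2.58 ± 1.85 in unmapped neurons, C1qb 141 ± 61.3 against 2.91 ± 2.12, and C1qc 108 ± 52.7 against 1.58 ± 1.31. The highest ratio in the lowest mouse, 38.0, belonged to Hmha1, the file's symbol for the GTPase-activating protein gene Arhgap45, at 144 ± 41.1 CPM against 1.54 ± 0.801. Inpp5d, which encodes the inositol phosphatase SHIP1 that restrains myeloid receptor signalling, was at 161 ± 53.8 CPM against 5.53 ± 2.66. Csf1r, the receptor that microglia need to survive, was at 64.5 ± 15.4 CPM against 1.42 ± 0.825. All these genes were higher in the annotated nuclei of 10 of 10 mice, which follows in part from how the nuclei were named.

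Upstream sequence is shown for 3 of these genes because their high level in every mouse sets the annotated nuclei apart and because each carries GGAAGT, the core letters of many PU.1 sites. RefSeq promoters on GRCm38.p6 were searched over the 250 bases before the gene start for GGAAGT on both strands, and the match is in capitals, written as ACTTCC where it lies on the opposite strand. C1qb (chr4:136886201-136886450, minus strand) holds it 53 bases before the RefSeq start, C1qc (chr4:136892915-136893164, minus strand) 195 bases before, and Inpp5d (chr1:87620062-87620311, plus strand) 18 bases before.
C1qb: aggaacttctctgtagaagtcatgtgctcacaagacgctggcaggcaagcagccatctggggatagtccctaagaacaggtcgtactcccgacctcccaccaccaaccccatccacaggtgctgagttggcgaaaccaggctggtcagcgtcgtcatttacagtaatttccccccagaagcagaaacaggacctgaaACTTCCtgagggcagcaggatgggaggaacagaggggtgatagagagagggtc
C1qc: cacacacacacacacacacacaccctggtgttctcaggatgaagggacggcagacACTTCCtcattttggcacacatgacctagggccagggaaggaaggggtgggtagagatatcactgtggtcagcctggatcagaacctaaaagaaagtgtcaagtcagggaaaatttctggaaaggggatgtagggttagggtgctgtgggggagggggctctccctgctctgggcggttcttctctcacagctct
Inpp5d: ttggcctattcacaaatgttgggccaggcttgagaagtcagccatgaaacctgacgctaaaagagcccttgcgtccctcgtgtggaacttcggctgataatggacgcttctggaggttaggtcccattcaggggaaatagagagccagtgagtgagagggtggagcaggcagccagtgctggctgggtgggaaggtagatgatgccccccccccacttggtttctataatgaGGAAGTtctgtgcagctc
Of the 30 genes, 20 had an entry and 9 of those 20 (45.0%) held a match in at least 1 promoter, which was 10 of 31 promoters (32.3%) against 6485 of 32851 (19.7%) over all genes. C1qa had no entry. A match says only that these letters are in the window.

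**Figure D2:**
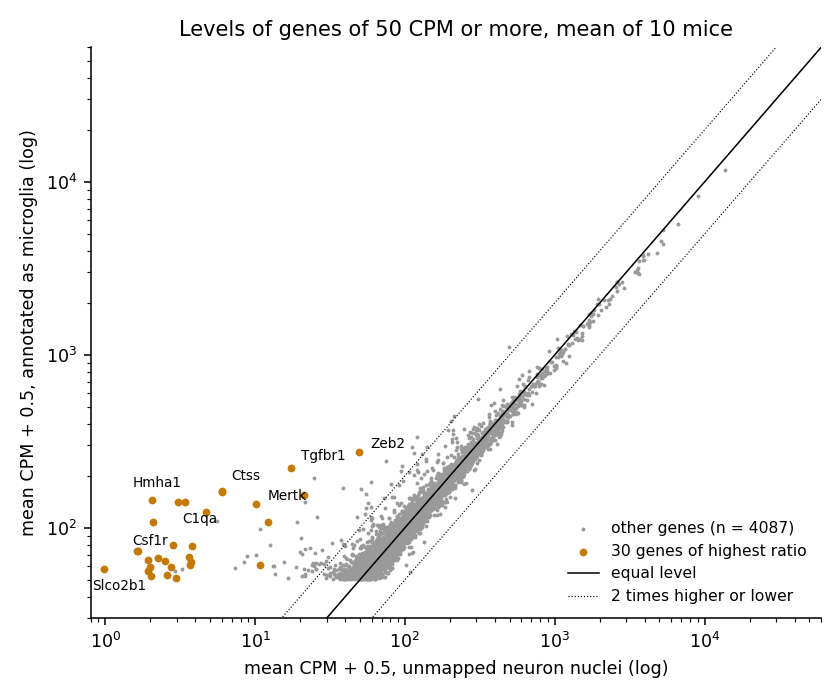
Mean CPM over 10 mice of 4117 genes in the annotated nuclei (y axis, log) against unmapped neuron nuclei (x axis, log), with 0.5 added to each. The genes are those of at least 50 CPM in the annotated nuclei. Nearly all genes follow the diagonal (4019 within a factor of 2), and C1qa, Hmha1, Csf1r and the other genes of the 30 lie above it.

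The other microglia groups differed in how far they stood above the unmapped neurons. Summed over the 8 complement genes measured, the mean was 525 CPM against 25.0, and C3, the central component made mainly on activation, was at 0. The 19 homeostatic genes measured summed to 1433 CPM against 178. Among them P2ry12, the ADP receptor that guides process movement, was at 195 ± 62.1 CPM against 24.4 ± 10.5, and Siglech at 72.9 ± 41.8 against 1.16 ± 0.574. Tmem119, a surface protein used to tell microglia from other macrophages, was at 19.8 ± 14.7 CPM against 0.386 ± 0.453, with a UMI in 8.11% of annotated nuclei. Trem2, a lipid receptor, was at 27.7 ± 17.5 CPM.

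Cx3cr1, the fractalkine receptor and 1 of the 3 markers, separated the populations less than the other markers did. It averaged 74.7 ± 27.9 CPM in annotated nuclei and 21.2 ± 7.84 in unmapped neurons, a ratio between 1.91 and 6.09 over the 10 mice. For Csf1r this ratio ran from 21.8 to 91.9 and for C1qa from 34.2 to 82.5. A UMI of at least 1 of the 3 markers was found in 313 of 481 annotated nuclei (65.1%) and in 800 of 11986 unmapped neurons (6.67%).

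Regulators and enzymes of the lineage followed. Spi1 itself was low at 18.0 ± 13.6 CPM against 0.397 ± 0.456, and Ikzf1, the Ikaros factor, was at 66.6 ± 29.6 against 1.76 ± 1.17. Runx1 was at 49.9 ± 20.8 against 3.84 ± 1.86. Tgfbr1, the receptor through which TGF-beta keeps microglia homeostatic, was at 221 ± 56.4 against 16.9 ± 2.41. The cysteine protease gene Ctss was at 162 ± 49.5 against 5.49 ± 2.33, and Mertk, a receptor for dying cells that astrocytes also carry, at 138 ± 32.8 against 9.57 ± 5.53. Genes also used by neurons showed little separation, with Zfhx3 at 222 ± 73.7 against 181 ± 31.8 CPM.

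Markers of other cells were present at unequal levels, beside a sum of 279.6 CPM for the 3 microglia markers. The 5 border macrophage markers measured summed to 52.2 CPM against 20.1, with Mrc1 at 17.6 ± 14.6, F13a1 at 30.6 ± 25.1 and Lyve1 at 0. Lymphocyte and neutrophil markers summed to 2.78 CPM, and Cd3g and Cd79a were at 0. The 4 oligodendrocyte markers summed to 361 CPM against 130 and the 4 astrocyte markers to 206 against 91.5. The 4 neuron markers summed to 14750 CPM against 17060. Among inflammatory genes, Il1b, Ccl3 and Cxcl10 were at 0, as were the MHC class II genes H2-Aa and H2-Ab1. FGF receptors were present at levels near those of unmapped neurons, Fgfr2 at 369 ± 48.7 CPM against 388 ± 68.8 and Fgfr1 at 44.1 ± 10.9 against 45.5 ± 8.99. Fgfr3, which astrocytes express strongly, was at 15.5 ± 10.0 against 5.38 ± 2.44.

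The number of annotated nuclei per mouse was 73, 51 and 23 with FGF1 and 27, 46 and 24 with vehicle on Day 1. On Day 5 it was 46 and 122 with FGF1 and 51 and 18 with vehicle. As a share of all nuclei these were 1.47, 2.01 and 2.06% with FGF1 and 2.18, 2.03 and 2.22% with vehicle on Day 1, where FGF1 mouse 1 alone stood apart from the rest. The means of 1.85 ± 0.33% and 2.14 ± 0.0985% gave a two-sided exact permutation p of 0.2, and 3 mice against 3 cannot go below 0.1. With non-neuronal nuclei as the denominator the order turned, to 10.1 ± 1.44% and 9.94 ± 0.546% (exact p = 1). On Day 5 the shares were 2.07 and 2.12% with FGF1 and 1.60 and 3.05% with vehicle, so the vehicle mice lay on either side of the FGF1 mice.

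The content of microglia transcripts is given without a test, since the nuclei had been named by clustering that used these genes. Per 10000 UMIs, the microglia list reached 18.1, 17.2 and 16.8 with FGF1 and 13.8, 12.5 and 12.8 with vehicle. The groups did not overlap. On Day 5 the values were 17.1 and 17.8 with FGF1 and 14.5 and 16.7 with vehicle. In unmapped neurons they ran from 1.33 to 2.46 over all mice. Depth moved with the Day 1 groups, at medians of 2474, 4363 and 3472 UMIs per annotated nucleus with FGF1 and 5447, 4494.5 and 4057.5 with vehicle. With each nucleus thinned to 1500 UMIs, 3 or more microglia list UMIs were found in 53.6, 41.2 and 47.8% of FGF1 nuclei and in 29.6, 28.3 and 29.2% of vehicle nuclei, and the 4 shallower nuclei, all from FGF1 mice, were left out. The means were 47.5 ± 6.23% and 29.0 ± 0.696%. Without thinning the shares were 95 ± 5.55% and 90.9 ± 5.79%. On Day 5 the thinned shares were 43.5 and 49.2% with FGF1 and 51.0 and 38.9% with vehicle, and the groups overlapped.

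Neuronal RNA in the annotated nuclei of Day 1 stood at 127, 149 and 134 neuron marker UMIs per 10000 with FGF1 and 130, 161 and 154 with vehicle. For these markers the groups overlapped, with means of 136 ± 11.3 and 148 ± 16.1. Summed over 5 glutamate and GABA neuron genes, levels were 217 to 316 CPM with FGF1 and 324 to 480 with vehicle. These sums did not overlap. Of these genes, Gad1 had a log2 fold change of -0.93 ± 0.45 and Gad2 of -0.83 ± 0.34, both without overlap. Slc17a6 was at 0.38 ± 0.39, with overlap, and none passed the edgeR FDR. In unmapped neurons Gad1 was at 0.13 and Gad2 at -0.03, with groups that overlapped. The part of neuronal RNA in the difference of microglia transcripts was not tested. With the neuron marker share of each mouse as a covariate, no gene passed on Day 1.

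Single microglia genes on Day 1 did not pass the threshold across all genes. Of 4053 genes tested with the edgeR quasi-likelihood test, none passed a false discovery rate (FDR) of 0.05 (0%) and 198 had an unadjusted p under 0.05 (4.89%). With DESeq2 1 gene passed, Zmym1. Zmym1, a zinc finger gene, was at 287, 110 and 286 TMM-scaled CPM with FGF1 and 18.9, 56.3 and 18.2 with vehicle, with a log2 fold change of 2.67 ± 0.53 (SE) and an edgeR FDR of 0.53. The groups did not overlap, FGF1 higher, as in 5.5% of all genes. In unmapped neurons of the same mice Zmym1 was at 384, 148 and 271 CPM with FGF1 and 33.8, 56.1 and 40.8 with vehicle. The difference was seen in both populations.

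Across the lists of homeostatic genes, lineage regulators and microglia genes prominent in nuclei, 24 of 41 genes measured passed the filter on low counts on Day 1. A gene could pass through the group where it was high, and Siglech and Ikzf1, for example, were low in vehicle mice. The 24 are therefore not all members, and the counts and medians over them are given as a description that supports no statement on the lists. Of the 24, 23 had a fitted log2 fold change above 0, where 50% of all genes tested did, and the median was 0.42 against 0.00. Unadjusted p was under 0.05 in 6, all higher with FGF1, against 2.29% of all genes in that direction. In 4 of the 24, Siglech, Mef2c, Ikzf1 and Ptprc, the groups did not overlap with FGF1 higher, against 5.5% of all genes. The 10 homeostatic genes tested were all above 0 (median 0.34), as were the 4 lineage regulators (median 0.43) and, in a list of its own, the 4 complement genes (median 0.26). Of 11 microglia genes prominent in nuclei, 10 were above 0 (median 0.48), and of 9 phagocytosis and lysosome genes 5 were (median 0.03).

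Values by mouse are given for 3 of the genes named above because their groups did not overlap with FGF1 higher. Siglech, a sialic acid-binding lectin of microglia, was at 63.8, 123 and 66.7 TMM-scaled CPM with FGF1 and 50.4, 9.38 and 9.11 with vehicle. The groups did not overlap, and the log2 fold change was 1.84 ± 0.57 (edgeR FDR 0.88). Without 1 mouse it ran from 1.37, without vehicle mouse 2, to 3.08, without vehicle mouse 1. Ptprc, the leukocyte phosphatase CD45, was at 119, 83.4 and 66.7 against 18.9, 42.2 and 36.4 (1.42 ± 0.43, edgeR FDR 0.88). Ikzf1 was at 100, 92.2 and 95.2 against 12.6, 46.9 and 54.6 (1.30 ± 0.45, edgeR FDR 0.88). That every FGF1 mouse was above every vehicle mouse in these 3 genes follows from this choice and is no separate result. None of the 3 passed the FDR. Zeb2 was in none of these lists but was 1 of the 30 genes of highest ratio. This gene, which represses epithelial genes and is needed for tissue macrophage identity, was at 255, 417 and 371 against 158, 169 and 246 (0.84 ± 0.30, edgeR FDR 0.88). Its groups did not overlap, FGF1 higher, as in 5.5% of all genes.

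The 3 markers overlapped between the groups on Day 1. Csf1r was at 82.0, 61.5 and 47.6 TMM-scaled CPM with FGF1 and 56.7, 42.2 and 82.0 with vehicle (log2 fold change 0.15, 95% interval -0.65 to 0.95). For Cx3cr1 the values were 68.4, 92.2 and 114 against 50.4, 70.3 and 45.5 (0.59, -0.18 to 1.36). For C1qa they were 251, 132 and 105 against 101, 192 and 82.0 (0.32, -0.47 to 1.12). These intervals include 0 and also rises of over 0.9 on the log2 scale, so neither a change nor its absence was shown at this depth. Like the intervals below, they were made from the SE with a normal quantile. With so few mice they are narrower than the edgeR test would give. Hmha1 was at 178, 206 and 114 against 113, 127 and 146 (0.36 ± 0.32).

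**Figure D3:**
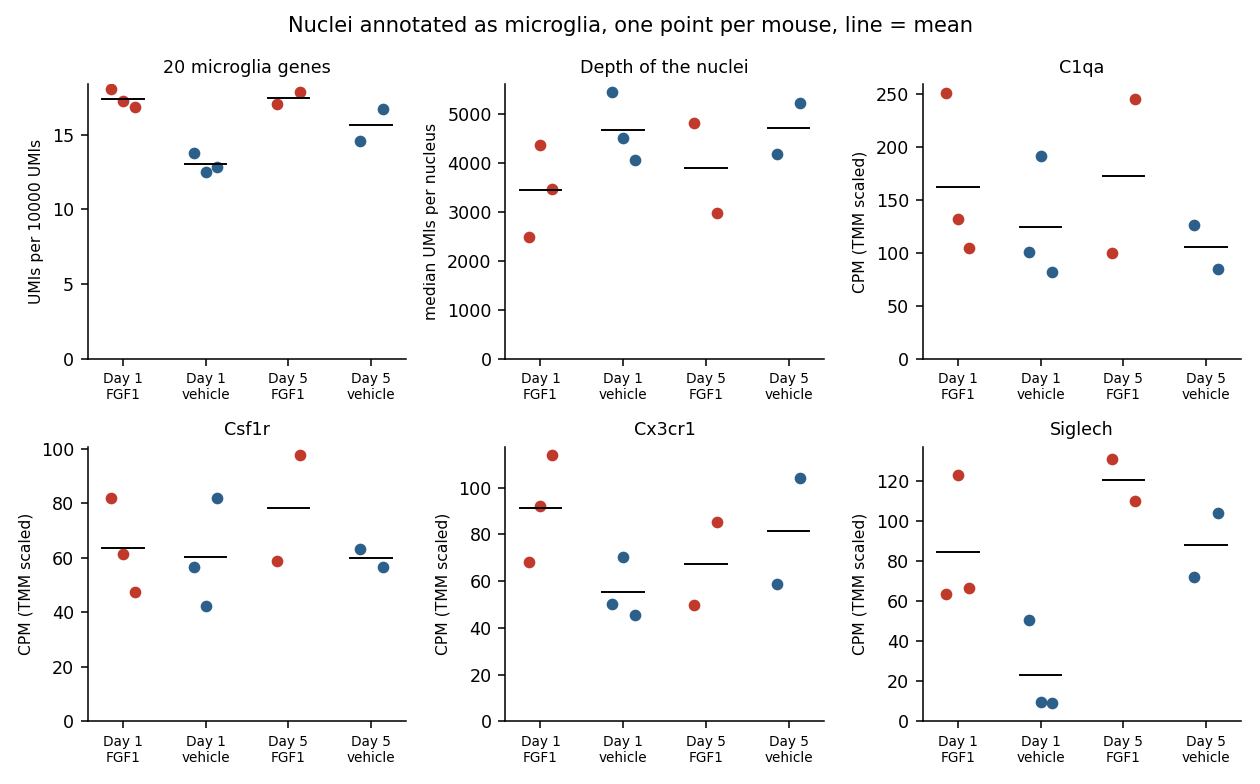
UMIs of the 20 microglia genes per 10000, median depth in UMIs and TMM-scaled CPM of C1qa, Csf1r, Cx3cr1 and Siglech in the annotated nuclei, 1 point per mouse with a line at the mean, for FGF1 and vehicle on Day 1 and Day 5; all y axes start at 0. On Day 1 the list total ran from 16.8 to 18.1 with FGF1 and from 12.5 to 13.8 with vehicle.

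Of the remaining Day 1 genes of smallest p, 4 were higher and 5 lower. Higher with FGF1, without passing the FDR, were Ntng1, a netrin family membrane protein gene (log2 fold change 1.40 ± 0.29), S100a6, a calcium-binding protein gene (2.59 ± 0.62), the receptor kinase gene Alk (1.22 ± 0.31) and the semaphorin gene Sema6d (1.25 ± 0.32). Lower were Itga11, an integrin chain gene (-2.45 ± 0.60), Grin1, the common subunit gene of NMDA receptors (-1.01 ± 0.26), the GABA-A receptor gene Gabrg1 (-1.14 ± 0.30), 4930590L20Rik (-1.62 ± 0.44) and Zkscan16 (-1.49 ± 0.41). The edgeR FDR of these 9 genes ran from 0.53 to 0.76. In unmapped neurons the same contrast gave 0.86 for Ntng1, 2.94 for S100a6, 0.52 for Alk, 0.86 for Sema6d, -2.08 for Itga11, -0.71 for Grin1 and -0.72 for Gabrg1. Each of these 7 had the same sign in both populations, and none passed the edgeR FDR in either. In unmapped neurons no gene of 13681 passed on Day 1, with 988 at an unadjusted p under 0.05 (7.22%).

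Metallothionein genes, which respond to metals and glucocorticoids, were also higher on Day 1 without passing the FDR. Mt1 was at 1750, 698 and 619 TMM-scaled CPM with FGF1 and 498, 586 and 291 with vehicle (1.12 ± 0.39, edgeR FDR 0.88). Mt2 was at 820, 479 and 362 against 233, 295 and 137 (1.27 ± 0.34, edgeR FDR 0.76). Neither gene overlapped between the groups, FGF1 higher, as in 5.5% of all genes. In unmapped neurons of the same mice the log2 fold change was 1.25 for Mt1 and 1.58 for Mt2, also without overlap as in 5.18% of all genes there, and the difference between the populations was -0.06 and -0.22. Without FGF1 mouse 1 the value in annotated nuclei was 0.47 for Mt1 and 0.86 for Mt2. Other genes that respond to glucocorticoids differed in sign there on Day 1, Sgk1 at 0.74 ± 0.36 and Fkbp5 at -0.26 ± 0.41. Neither passed the edgeR FDR.

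Ccl12 was detected on Day 1 in annotated nuclei of every FGF1 mouse and of no vehicle mouse. Ccl12 (chr11:82101845-82103400) encodes a chemokine that attracts monocytes through CCR2 and is close in sequence to Ccl2, so reads may be shared between them. On Day 1 it had 37, 11 and 9 UMIs in the FGF1 mice and 0 in each of the 3 vehicle mice. It was found in 16, 6 and 6 FGF1 nuclei, or 21.9, 11.8 and 26.1%, and in 0 of 97 vehicle nuclei. Pooled over the mice this was 28 of 147 nuclei (19.0%), a share that varied between mice as given, and 0 of 97 pooled vehicle nuclei limits the share with a UMI, not the share expressing the gene, to 3.73% (exact binomial 95% bound). Ccl12 was named from these same counts, so its shares are a description only and a test of them would decide nothing. The share of all genes detected in this way is not given here. The pooled level of 103 CPM was at least 16.1-fold higher than a floor of 3 counts over the vehicle group (6.38 CPM). This bound and floor cover counting error only, not the spread between mice. In 17 of the 28 nuclei there was 1 UMI, and the highest count was 5.

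The same chemokine was found in other nuclei of the same mice at lower shares. On Day 1 with FGF1 it was in 24 of 4231 unmapped neurons (0.567%, 2.27 CPM), in 26 of 553 astrocytes (4.70%, 19.9 CPM) and in 6 of 187 tanycytes (3.21%, 11.1 CPM). With vehicle it was in 0 of 2144, 0 of 250 and 0 of 87. Median depths with FGF1 were 3229 UMIs in annotated nuclei, 2214 in unmapped neurons and 2588 in astrocytes. By mouse Ccl12 was at 3.35, 1.28 and 0.628 CPM in unmapped neurons with FGF1, below the annotated nuclei of the same mouse in 3 of 3, and this difference was not tested. On Day 5 Ccl12 was found in 6 of 168 FGF1 nuclei (3.57%) and in 2 of 69 vehicle nuclei (2.90%). Among Day 1 FGF1 nuclei the median microglia list content was 14.3 per 10000 UMIs in the 28 with Ccl12 and 18.4 in those without.

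Ccl12 was below the filter on low counts in the Day 1 fit. Over both days with day as a term it had a log2 fold change of 4.26 ± 0.87 and an edgeR FDR of 0.18. It could pass the filter there through the Day 1 FGF1 mice, so this fit and its variants are a description only. The difference of the FGF1 effect between the days was -6.675 ± 2.39 (edgeR FDR 0.999). TMM-scaled CPM were 169, 48.3 and 85.7 against 0, 0 and 0 on Day 1, and 9.04 and 12.5 against 9.02 and 0 on Day 5. In the 9 fits without 1 mouse that held it, the log2 fold change ran from 3.61 to 7.12 and the edgeR FDR from 0.0085, without Day 5 vehicle mouse 28, to 0.56, without Day 1 vehicle mouse 1. With the neuron marker share as a covariate it was 0.045, with DESeq2 0.064, and with no filter on low counts 2.9e-06.

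Transcripts of reactive glia such as Gfap stood at higher levels with FGF1 on Day 1 in annotated nuclei and in unmapped neurons, without passing the edgeR FDR. Of 15 such genes only S100a6 passed the filter in annotated nuclei. Gfap, the intermediate filament gene of astrocytes, was at 86.6, 61.5 and 47.6 TMM-scaled CPM in annotated nuclei with FGF1 and 0, 4.69 and 0 with vehicle on Day 1. It was at 59.1, 44.0 and 32.0 CPM in unmapped neurons with FGF1 and 2.79, 3.79 and 7.47 with vehicle. In astrocytes, pooled over mice, it was at 2573 CPM with FGF1 and 403 with vehicle. The summed level of 15 reactive glia genes ran from 310 to 636 CPM in annotated nuclei with FGF1 and from 49.2 to 103 with vehicle. In unmapped neurons all 14 of these genes that passed the filter had groups that did not overlap, FGF1 higher, against 5.18% of all genes. This count is a description only, since a gene near 0 with vehicle could pass the filter through the FGF1 mice, and none of the 14 passed the edgeR FDR. The part of such transcripts in the annotated nuclei was not tested.

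**Figure D4:**
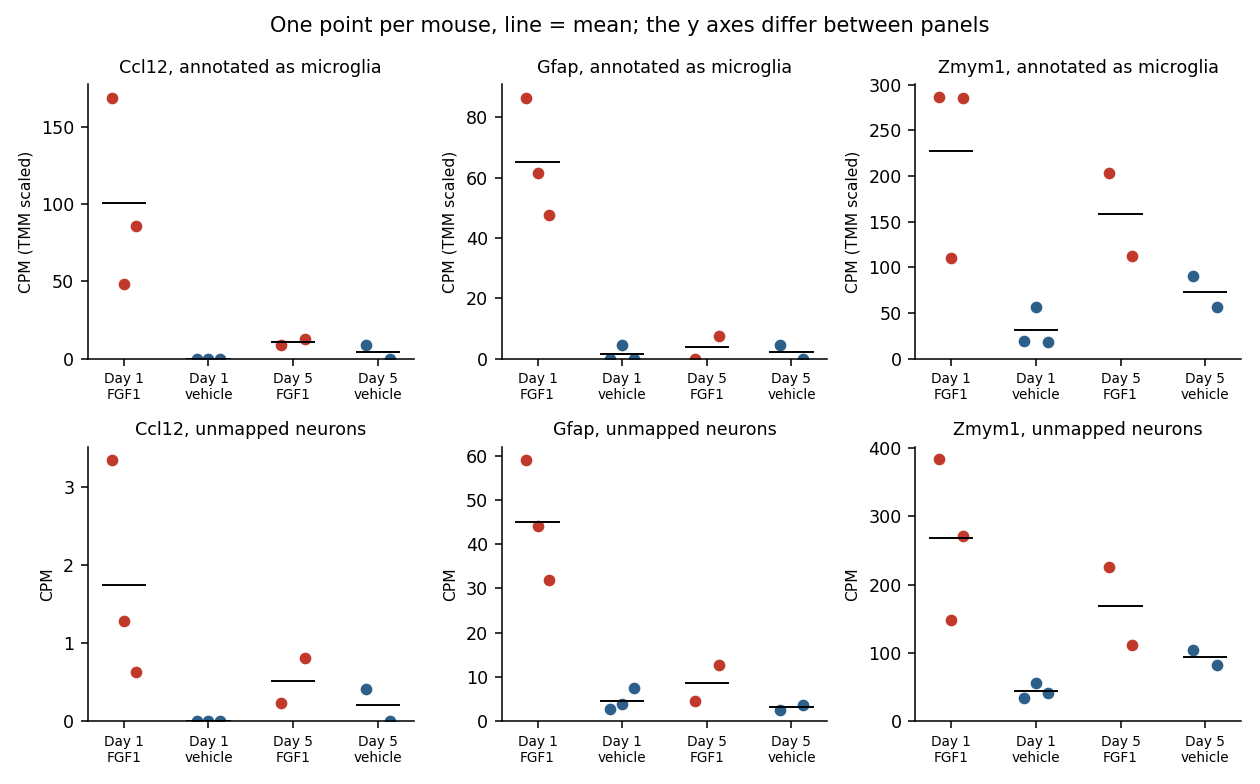
TMM-scaled CPM of Ccl12, Gfap and Zmym1 in annotated nuclei (upper row) and plain CPM in unmapped neuron nuclei (lower row) on both days, 1 point per mouse with a line at the mean; the y axes start at 0 and differ between panels. On Day 1 Ccl12 in annotated nuclei reached 48.3 to 169 with FGF1 and 0 in the 3 vehicle mice. Gfap and Zmym1 were higher with FGF1 in both populations on that day.

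On Day 5, 6 of 4974 genes passed an edgeR FDR of 0.05 (0.121%), 1 higher (0.0201%) and 5 lower (0.101%) with FGF1, and 355 had an unadjusted p under 0.05 (7.14%). None of the 28 microglia list genes tested was among them.

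The annotated nuclei also held oligodendrocyte transcripts on Day 5. Mbp, the myelin basic protein gene, was at 194 and 221 TMM-scaled CPM with FGF1 and 94.7 and 65.9 with vehicle on Day 5 (1.17 ± 0.32, edgeR FDR 0.27). Mog, a surface protein gene of the myelin sheath, was at 95 and 85.3 against 40.6 and 56.5 (0.81 ± 0.45, edgeR FDR 0.74). The groups did not overlap for these 2 genes, FGF1 higher, as in 28.3% of all genes, and neither passed the FDR. Mobp, another gene of these cells, was at 40.7 and 52.7 against 49.6 and 18.8 (0.16 ± 0.51), and its groups overlapped. In unmapped neurons the Day 5 log2 fold change was -0.18 ± 0.45 for Mbp, 0.57 ± 0.78 for Mog and -1.08 ± 0.57 for Mobp. The difference between the populations was 1.41 ± 0.35, 0.35 ± 0.64 and 1.29 ± 0.63, and none passed the edgeR FDR. Summed over 4 oligodendrocyte markers the Day 5 level in annotated nuclei was 648 to 717 CPM with FGF1 and 289 to 298 with vehicle. On Day 1 it was 145 to 211 with FGF1 and 145 to 523 with vehicle, and the groups overlapped. For Mbp the Day 1 log2 fold change was below 0, at -1.22 ± 0.44 in annotated nuclei (edgeR FDR 0.88) and -0.74 ± 0.21 in unmapped neurons (edgeR FDR 0.60). The difference of the FGF1 effect between the days was 2.38 ± 0.58 for Mbp (edgeR FDR 0.999), and no gene of 5941 passed for this difference (0%), with 230 at an unadjusted p under 0.05 (3.87%) and none with DESeq2. The part of oligodendrocyte RNA in the differences of the annotated nuclei was not tested.

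The 5 genes that fell on Day 5 were not microglia genes. Nnat (chr2:157560078-157562522), an imprinted gene for a proteolipid of the endoplasmic reticulum, was at 163 and 120 TMM-scaled CPM with FGF1 and 455 and 415 with vehicle. It fell by 1.81 ± 0.26 on the log2 scale (edgeR FDR 0.0036). Rabac1 (chr7:24969752-24972754), a prenylated Rab acceptor gene, was at 49.7 and 32.6 against 225 and 141 (-2.41 ± 0.39, edgeR FDR 0.0089). Eif1 (chr11:100319885-100322096), a translation initiation factor gene, was at 54.3 and 32.6 against 243 and 122 (-2.37 ± 0.40, edgeR FDR 0.012). The groups did not overlap for these 3 genes, FGF1 lower, as in 11.6% of all genes.

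Ly6h (chr15:75551268-75567255), which encodes a neuronal regulator of nicotinic receptors, was at 72.3 and 82.8 TMM-scaled CPM with FGF1 and 370 and 151 with vehicle (-1.97 ± 0.34, edgeR FDR 0.012). Gm26917 (chr17:39843013-39846341) is an annotated long non-coding RNA whose locus is known to hold ribosomal RNA sequence, so its counts are uncertain. It was at 22.6 and 15.1 against 234 and 84.8 (-3.39 ± 0.49, edgeR FDR 0.0036). In all 5 genes vehicle mouse 28 was the highest.

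The Day 5 calls depended on single mice. Without vehicle mouse 28 there were 4 calls and none of the 6 was among them. Without vehicle mouse 38 there were 14 calls, among them the 5 lower genes. Without FGF1 mouse 45 there were 4 calls, 2 of them among the 6, and without FGF1 mouse 37 there were 21, which held all 6. DESeq2 called 2 genes, Nnat and Gm26917.

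The same 5 genes had the same sign in unmapped neurons of the same mice. Nnat was at 88.3 and 92.1 CPM with FGF1 and 490 and 242 with vehicle there (-1.97 ± 0.36, edgeR FDR 0.38). For Gm26917 the fitted value was -3.13, for Eif1 -2.08, for Ly6h -1.92 and for Rabac1 -1.80. The groups did not overlap for any of these 5 genes in unmapped neurons, where 28.1% of all genes had groups that did not overlap with FGF1 lower. A direct test of the difference between the populations gave values from -0.42 to 0.28 for the 5 genes, each at an edgeR FDR of 1. No gene of 10228 passed that test on Day 5 (0%), with 438 at an unadjusted p under 0.05 (4.28%).

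**Figure D5:**
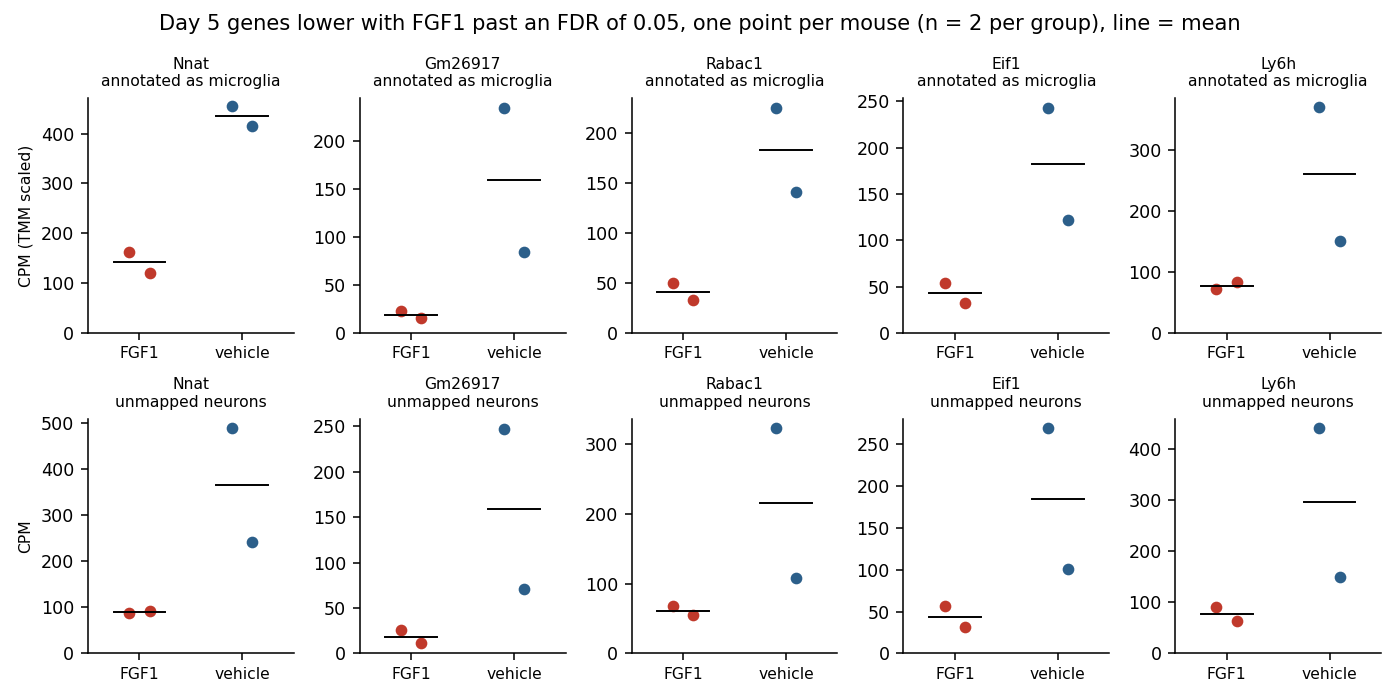
TMM-scaled CPM in annotated nuclei (upper row) and CPM in unmapped neuron nuclei (lower row) of the 5 genes lower with FGF1 past an FDR of 0.05 on Day 5, 1 point per mouse with a line at the mean; y axes start at 0. Both FGF1 mice lie below both vehicle mice for each gene in both rows, Nnat for example at 163 and 120 against 455 and 415 in annotated nuclei.

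On Day 5, 28 of the 41 genes of the microglia lists passed the filter, and counts over them are again a description only. Of the 28, 20 had a fitted log2 fold change above 0 against 52% of all genes, and the median was 0.28 against 0.02. In 13 of the 28 the FGF1 mice did not overlap with and were above the vehicle mice, where 28.3% of all genes were. Unadjusted p was under 0.05 in 4, all higher, against 2.73% of all genes. Csf1r was at 58.8 and 97.9 TMM-scaled CPM with FGF1 and 63.1 and 56.5 with vehicle (0.28, 95% interval -0.57 to 1.13). Cx3cr1 was at 49.7 and 85.3 against 58.6 and 104 (-0.23, -1.13 to 0.66). C1qa was at 99.5 and 246 against 126 and 84.8 (0.57, -0.17 to 1.32). The 3 markers overlapped between groups, as they had on Day 1.

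The complement chains differed in sign in annotated nuclei on Day 5. C1qc was at 49.7 and 60.2 TMM-scaled CPM with FGF1 and 113 and 84.8 with vehicle (-1.002 ± 0.40, edgeR FDR 0.60). C1qb was at 122 and 166 against 122 and 84.8 (0.30 ± 0.33). The genes with smallest p among microglia lists were Hmha1, at 145 and 238 against 90.2 and 94.2 (0.96 ± 0.34, edgeR FDR 0.555), the steroid conjugate transporter gene Slco2b1, at 81.4 and 85.3 against 31.6 and 37.7 (1.17 ± 0.47), Plxdc2 (0.54 ± 0.24) and Ly86 (0.88 ± 0.41). Dock10 and Zeb2 were in none of the lists behind these counts. Dock10, a guanine exchange factor for small GTPases, was at 574 and 494 against 298 and 198 (0.91 ± 0.25, edgeR FDR 0.27). Zeb2 was at 357 and 424 against 207 and 160 (0.92 ± 0.25, edgeR FDR 0.27). None of these passed the FDR.

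With both days fitted together and day as a term, no gene of 5941 passed an edgeR FDR of 0.05 (0%), 371 had an unadjusted p under 0.05 (6.24%) and DESeq2 also called none. Counts over list genes that passed the filter are a description only, as above. Among microglia lists 25 of the 27 genes that passed the filter had a fitted value above 0, against 50.9% of all genes, with a median of 0.42 against 0.01, and 6 had an unadjusted p under 0.05 with FGF1 higher, against 3.37%. All 12 microglia genes prominent in nuclei that were tested were above 0 (median 0.49), and all 11 cytoskeleton and motility genes were (median 0.37). Of 6 activation genes 2 were above 0 (median -0.06). Zeb2 had a log2 fold change of 0.89 ± 0.20 (edgeR FDR 0.19), and on each day the FGF1 mice lay above the vehicle mice of that day, as they did in 2.04% of all genes. In unmapped neurons Zeb2 was also above 0, at 0.46 ± 0.33 on Day 1 and 0.50 ± 0.33 on Day 5, with groups that overlapped. The difference between the populations was 0.45 ± 0.24 and 0.49 ± 0.28, and it passed the edgeR FDR on neither day.

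The other genes of smallest p over both days were Chsy3, a chondroitin synthase gene (1.27 ± 0.26), Ubash3b, a phosphatase gene that restrains immune receptor signalling (1.43 ± 0.31), Alk (1.09 ± 0.24) and Etv6, an ETS family repressor gene (1.39 ± 0.31), all at an edgeR FDR from 0.18 to 0.19. Ubash3b was at 95.7, 154 and 190 TMM-scaled CPM with FGF1 and 50.4, 51.6 and 36.4 with vehicle on Day 1, and at 90.4 and 85.3 against 27.1 and 47.1 on Day 5. Etv6 was at 109, 110 and 114 against 44.1, 32.8 and 45.5, and at 58.8 and 67.8 against 31.6 and 9.42. Within each day no FGF1 mouse overlapped with a vehicle mouse for either gene, FGF1 higher, as in 2.04% of all genes. In unmapped neurons the log2 fold change was also above 0, at 0.78 on Day 1 and 0.57 on Day 5 for Ubash3b and at 0.85 and 0.70 for Etv6. The difference between the populations passed the edgeR FDR for neither gene on either day. Lower, and also not past the FDR, were Gabrg1 (-0.94 ± 0.22), the cilium gene Cep290 (-1.18 ± 0.28), Itga11 (-2.01 ± 0.49), Phf6 (-1.09 ± 0.28) and Etnppl, an enzyme gene of astrocytes (-2.76 ± 0.74).

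MAPK feedback genes rise when FGF signals through ERK. They were listed together with FGF receptor genes, and most genes of this list were too low to test. On Day 1, 3 of 14 passed the filter, with Spred2 at 82.0, 101 and 105 TMM-scaled CPM with FGF1 and 69.3, 37.5 and 54.6 with vehicle (0.80 ± 0.39). Spred1 was at 77.5, 136 and 133 against 101, 42.2 and 45.5 (0.81 ± 0.43), and Fgfr2 was at 310, 316 and 343 against 429, 413 and 328 (-0.31 ± 0.25). None passed the FDR. In unmapped neurons 11 of the 14 passed the filter on Day 1, 7 of them higher at an unadjusted p under 0.05, where 3.56% of all genes were. None of the 11 passed the edgeR FDR, and a gene could pass the filter through the FGF1 mice, so the count is a description only. No immediate early gene passed the filter on either day. Of 10 cell cycle genes 1 passed it, Stmn1, which neurons also express.

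To ask whether the FGF1 effect differed between annotated nuclei and unmapped neurons on Day 1, both were fitted together. No gene of 11155 passed (0%), and 530 had an unadjusted p under 0.05 (4.75%). The filter on low counts limits these list counts in the same way, and they support no statement on the lists. Among microglia lists 32 of 36 genes that passed it were above 0, against 52.2% of all genes, with a median difference of 0.77 against 0.02, and 7 had an unadjusted p under 0.05 with the difference above 0, against 2.76%. The smallest p among them belonged to Mef2c, a factor that limits microglial activation (0.93 ± 0.24), the kinase gene Lyn (0.87 ± 0.23) and Mertk (1.40 ± 0.40), with edgeR FDR values from 0.45 to 0.54. Each of the 3 was below 0 in unmapped neurons. The FGF1 effect of Mef2c was 0.62 in annotated nuclei and -0.27 in unmapped neurons, that of Lyn 0.14 and -0.66, and that of Mertk 0.03 and -1.31. Pomc, a neuropeptide gene, had the smallest p of all (-2.17 ± 0.49, edgeR FDR 0.087). On Day 5, 22 of 37 microglia genes were above 0, against 52.5% of all genes, and 3 had an unadjusted p under 0.05 in that direction, against 2.61%.

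Whole cells from 12 ob/ob mice on Day 5 were measured apart from the nuclei. The deposited cluster 8, where the 3 markers were highest, held 1870 of 54890 cells and 40 to 371 cells per mouse, and its neuron marker content was 1.53 to 7.53 UMIs per 10000 against 127 to 193 in annotated nuclei. The microglia list reached 117 to 222 UMIs per 10000 there, against 12.5 to 18.1. In vehicle mice of Day 5 the nuclear level was 4.38% of the cell level for Csf1r, 3.92% for C1qa and 6.02% for Ctss, but 73.5% for Inpp5d, 63.1% for Mertk and 57.7% for Ikzf1. Nuclear and whole-cell libraries were made and counted differently, introns included only in the former, so these are side by side and untested.

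In that cluster 7 of 2676 genes passed an edgeR FDR of 0.05 (0.262%), all lower with FGF1, and none was in a microglia list. The direction depended on the setting, with 6 higher and 12 lower by DESeq2 and 71 higher and 25 lower with no filter on low counts. Among the 7 were Gstm5, Gstm1, Cldn10, Ndufa5, Zwint and 2900052N01Rik, of which Cldn10, Gstm1 and Gstm5 are expressed by astrocytes. Ccl12 was at 645 to 1189 TMM-scaled CPM with FGF1 (median 994, n = 6) and 236 to 897 with vehicle (median 483), and the groups overlapped (0.64 ± 0.22, edgeR FDR 0.20). Ccl9, a related chemokine named for its small p, was at 82.7 to 156 with FGF1 and 0 to 78.9 with vehicle (1.12 ± 0.28, edgeR FDR 0.080). Its groups did not overlap, FGF1 higher, as in 0.411% of all genes. Csf1r was at 1214 to 1902 against 1006 to 2013 (0.05, 95% interval -0.27 to 0.37). The 3 chains of C1q had the same sign there, with log2 fold changes of 0.44 ± 0.20 for C1qa, 0.52 ± 0.20 for C1qb and 0.49 ± 0.18 for C1qc. Their unadjusted edgeR p was 0.032, 0.014 and 0.013, in a direction where 4.82% of all genes were under 0.05, their edgeR FDR ran from 0.23 to 0.34, and the groups overlapped. The log2 fold change of Hmha1 was -0.21 ± 0.21 in whole cells beside 0.96 in annotated nuclei on Day 5, and that of Dock10 was -0.0036 ± 0.22 beside 0.91. Of the genes lower in annotated nuclei on Day 5, Nnat was at 0.42 ± 0.36, Eif1 at -0.048 ± 0.18 and Rabac1 at -0.13 ± 0.20 in whole cells. Ly6h was at -1.17 ± 0.31 there. Among oligodendrocyte markers, Mbp was at -0.34 ± 0.28 and Mobp at -0.75 ± 0.31. None of these genes passed the edgeR FDR in whole cells.

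Annotated nuclei summed to 93395 to 447891 UMIs per mouse. Of their 481 barcodes 15 also occurred in another library (3.12%), as did 638 of all 24965 (2.56%), and 0 were shared within the annotated set. Day 1 FGF1 mouse 1 stood apart in some genes, with Ly6h at 1110 TMM-scaled CPM against 76.2 to 366 in the other Day 1 mice. Leaving it out raised the calls over both days from 0 to 30, and those included Zeb2, Chsy3 and Ubash3b.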

How the data were processed

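Hypothalamic nuclei of 10 ob/ob mice and whole cells of 12 were measured by droplet RNA-seq, 1 mouse per library. The deposited tables hold UMI counts per gene and nucleus or cell, which the authors made with Cell Ranger 1.2 (Cell Ranger and Seurat are named in the submitters' processing notes) on GRCm38, with introns counted for nuclei, and filtered on genes detected and on mitochondrial or ribosomal share. The natural log normalized tables that the authors also deposited were not used. Doublets were removed by the authors in whole cells; for nuclei the study states that this step was left out, and no doublet caller was run here. The deposited nuclei outnumber those the study describes. Groups came from the labels, and cell names from the deposited annotation.

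Counts were summed per mouse over the annotated nuclei and tested with the quasi-likelihood test of edgeR 4.0.16 (limma 3.58.1, R 4.3.3) after TMM scaling and its default filter on low counts, at a Benjamini-Hochberg FDR of 0.05. Both days were fitted with day as a term, and annotated nuclei against unmapped neurons with the mouse as a block. Alternatives were DESeq2 1.42.0, its size factors, no filter, nuclei with 3 or more microglia UMIs, the neuron marker share as a covariate, a replicate block and leaving out each mouse. Batch as a block was also run, for Day 5 and both days as a choice made after seeing the data. TMM-scaled CPM are used for values per mouse in annotated nuclei, plain CPM for levels against unmapped neurons. Shares were compared by two-sided exact permutation tests. Python 3.11.15, numpy 2.4.6, pandas 2.3.3, scipy 1.17.1 and matplotlib 3.10.9 were used. Scripts were tested on simulated data.

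The members and lists were chosen with earlier results of these data known. Named genes were the 3 markers, up to 10 genes per direction past the FDR (or, where fewer than 5 passed, the 5 of smallest p), up to 4 genes of highest CPM per list, and the 30 genes of highest lowest-mouse ratio among those of at least 50 CPM. Spi1, Runx1, Tmem119, Trem2, Fgfr3 and the genes given at 0 in every mouse were list genes named after their values were seen. Gene coordinates are from the GENCODE annotation of GRCm38. Of 247 list genes 237 were in the table, and the others were not analysed here. Each deposited batch held a single FGF1 mouse and a single vehicle mouse of the same day, and no batch held both days. Replicate numbers did not follow the batches, and the main fits within annotated nuclei used neither. Some genes are not reported here.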

Additional observations from a re-analysis of the deposited data

Results flagged for a closer look

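Of 20 groups of 4 to 10 mice examined for a mouse far from the others, 3 were marked, and chance marks about 1 in 20. All 3 were in the whole-cell cluster. FGF1 mouse 10 had a median of 1844 UMIs per cell and vehicle mouse 35 a median of 1809, each the highest of its group. Vehicle mouse 35 also had the highest microglia list content of the vehicle mice, 216.2 UMIs per 10000.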

How the results depend on the processing

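With DESeq2 the calls in annotated nuclei numbered 1 on Day 1 and 2 on Day 5, and 18 in the whole-cell cluster. With no filter on low counts they were 15 on Day 1, 18 on Day 5, 19 over both days, 2 for the difference between days and 96 in whole cells. The neuron marker share as a covariate gave 2 calls over both days. Leaving out 1 mouse at a time gave 0 to 3 calls on Day 1 (3 without FGF1 mouse 1 and 2 without FGF1 mouse 2), 4 to 21 on Day 5, 0 to 30 over both days (30 without Day 1 FGF1 mouse 1, 2 without Day 5 vehicle mouse 28) and 0 to 1 for the difference between days. Against unmapped neurons it gave 0 to 2 on Day 1 and 0 to 8 on Day 5, the latter without vehicle mouse 28. The cause was not tested.

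Day 1 mice of the same replicate number lay in different batches. Their deviations from the group means correlated at -0.11, -0.17 and 0.18 over 4115 genes. For FGF1 and vehicle mice of the same batch the correlations were 0.013, -0.285 and -0.269. Deviations from means of 3 mice cannot exclude pairing. The replicate block gave 0 calls with 156 genes at an unadjusted edgeR p under 0.05. Batch as a block gave 0 calls on Day 1, and, chosen after seeing the data, 0 over both days and 8 on Day 5.

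The difference in share turned on Day 1 with non-neuronal nuclei as denominator (0.180 percentage points) and ran from -0.951 to 0.492 on Day 5 without 1 mouse. Without 1 mouse, log2 fold changes on Day 1 ran from -0.0543 to 0.43 for Csf1r and -0.17 to 0.86 for C1qa. On Day 5 they ran from -0.12 to 0.52 for Csf1r, -0.77 to 0.21 for Cx3cr1 (0.0045 without FGF1 mouse 37), -0.23 to 0.99 for C1qa and -0.0185 to 0.66 for Siglech. Of 1049 values under alternatives, those for single genes kept direction and call in 894, gained a call in 34, lost it in 15 and changed sign in 7. Those for counts and shares stayed near the reported value in 76, moved in 21 and changed sign in 2. With 18 to 122 nuclei per mouse, genes of few UMIs could not be tested.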
